A study of Mus musculus with 6 samples.

Results

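Mitochondrial ribosomal proteins were followed in mouse microglia after experimental stroke. The members were the known genes of the deposited table whose symbol begins with Mrpl or Mrps followed by a number. This rule goes by name and not by expression, but it was chosen with earlier results of these data known. There were 78 members among 38207 genes and loci, 49 named for the large subunit (Mrpl) and 29 for the small subunit (Mrps). All 78 had an Ensembl gene ID found in GENCODE M21, where they lay on 17 chromosomes.

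Mitochondria keep a small genome of their own, and the ribosome that reads it is assembled inside the organelle. Its RNA comes from the mitochondrial genome, while every one of its proteins is encoded in the nucleus, made in the cytosol and imported. The ribosome makes core subunits of the respiratory chain and of ATP synthase, and a good part of its proteins have no counterpart in the bacterial ribosome from which it descends.

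The series held 6 nanopore cDNA libraries of wild-type mice labelled as microglia of the brain, 3 from sham-operated animals and 3 from animals with tMCAO, which usually stands for a transient block of the middle cerebral artery and models ischemic stroke. Each library pooled 30 mice, so that differences between single animals cannot be seen. Not given in the sources used here are the time after surgery, the age of the mice and the isolation method, and tissue is what the extraction protocol names as its input. Library totals ran from 1855495 to 2614512 counts. The 10 microglial markers summed to 25700 to 26900 CPM (a gene's counts scaled to a common library total, the deposited unit) in sham and 23700 to 26400 in tMCAO libraries, and 3 of them, P2ry12, Siglech and Gpr34, passed the test as lower after tMCAO. The 9 neuronal markers in the table summed to 11.5 to 16 CPM in sham and 5.33 to 8.86 in tMCAO libraries. Monocyte markers summed to 681 to 785 CPM in sham and 2260 to 6680 in tMCAO libraries, and 17 of 19 tested cell cycle genes passed as higher. In such bulk RNA, a change in the number of cells of a type and a change in RNA per cell cannot be told apart.

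Mitoribosomal transcripts held nearly the same share of the RNA in both groups. All 78 members together took 0.383%, 0.412% and 0.37% of the counts of sham 1 to 3 and 0.417%, 0.366% and 0.424% of tMCAO 1 to 3. The means were 0.388% ± 0.0215 (SD, n = 3) and 0.402% ± 0.0318 (SD, n = 3), and the groups overlapped, the tMCAO libraries holding both the lowest and the highest value. Of the members, 76 had counts in every library and 76 passed the filter on low counts, 48 large and 28 small. The remaining pair was Mrpl53, with no count in any library, and Mrps30, with counts of 1, 4 and 1 in sham and 0, 2 and 3 in tMCAO libraries. Despite its name, Mrps30 sits in the large subunit.

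None of the 76 tested members passed edgeR's quasi-likelihood test at a Benjamini-Hochberg adjusted p under 0.05. Over all 13127 genes and loci tested in the same fit, 18.1% passed, 9.17% as higher and 8.96% as lower after tMCAO. Of the 8528 known genes among them 17.1% passed, 974 genes as higher and 488 as lower. At an unadjusted p under 0.05, 1 member was higher (Mrpl54) and 3 were lower (Mrps33, Mrps6 and Mrpl49), 5.26% of the members against 32.4% of all genes tested. DESeq2 called 0 members higher and 1 lower (Mrps6), and limma voom called 0 in either direction. The calls under other settings, at most 3 lower and 1 higher, came from Mrps33, Mrps6, Mrpl49, Mrps21 and Mrpl54.

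The members' log2 fold changes lay close together. Their median was 0.06 (quartiles -0.15 and 0.19), with 41 positive and 35 negative values, against a median of 0.00 and quartiles of -0.44 and 0.43 over all genes tested. The fold was under 0.5 on the log2 scale, in either direction, in 68 of 76 members (89.5%) and in 55.8% of all genes. It reached 1 in 2 members, Mrps24 and Mrps6, and in 17.5% of all genes. For 61 members (80.3%) the whole 95% interval lay within a 2-fold change in either direction, which held for 39.6% of all genes tested. Over the 8528 known genes in this fit, the class the members belong to, the median was 0.09 (quartiles -0.26 and 0.49). Of these known genes, 61.5% had a fold under 0.5 and 49.1% an interval within a 2-fold change. The median half-width of the members' intervals was 0.47, and changes smaller than this were mostly not detectable. Larger ones could also go uncalled after adjustment over all genes, as did the estimates of 0.71 for Mrpl54 and -1.06 for Mrps6.

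Large-subunit members had a median log2 fold change of 0.08 (quartiles -0.10 and 0.19), and small-subunit members one of -0.08 (quartiles -0.22 and 0.20). Members were also grouped by their place in the ribosome and by the class in their unified names, bacterial homologue or mitochondrion-specific. Mrps18a and Mrps18b are classed there as mitochondrion-specific, although Mrps18c, of the same family name, is classed as a homologue. The 30 large-subunit proteins classed as homologues had a median of 0.08, and the 19 tested mitochondrion-specific ones a median of 0.11. Of the small subunit, the 16 homologues had a median of -0.08 and the 10 specific proteins a median of -0.01. No test was run between these groups of members.

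**Figure D1:**
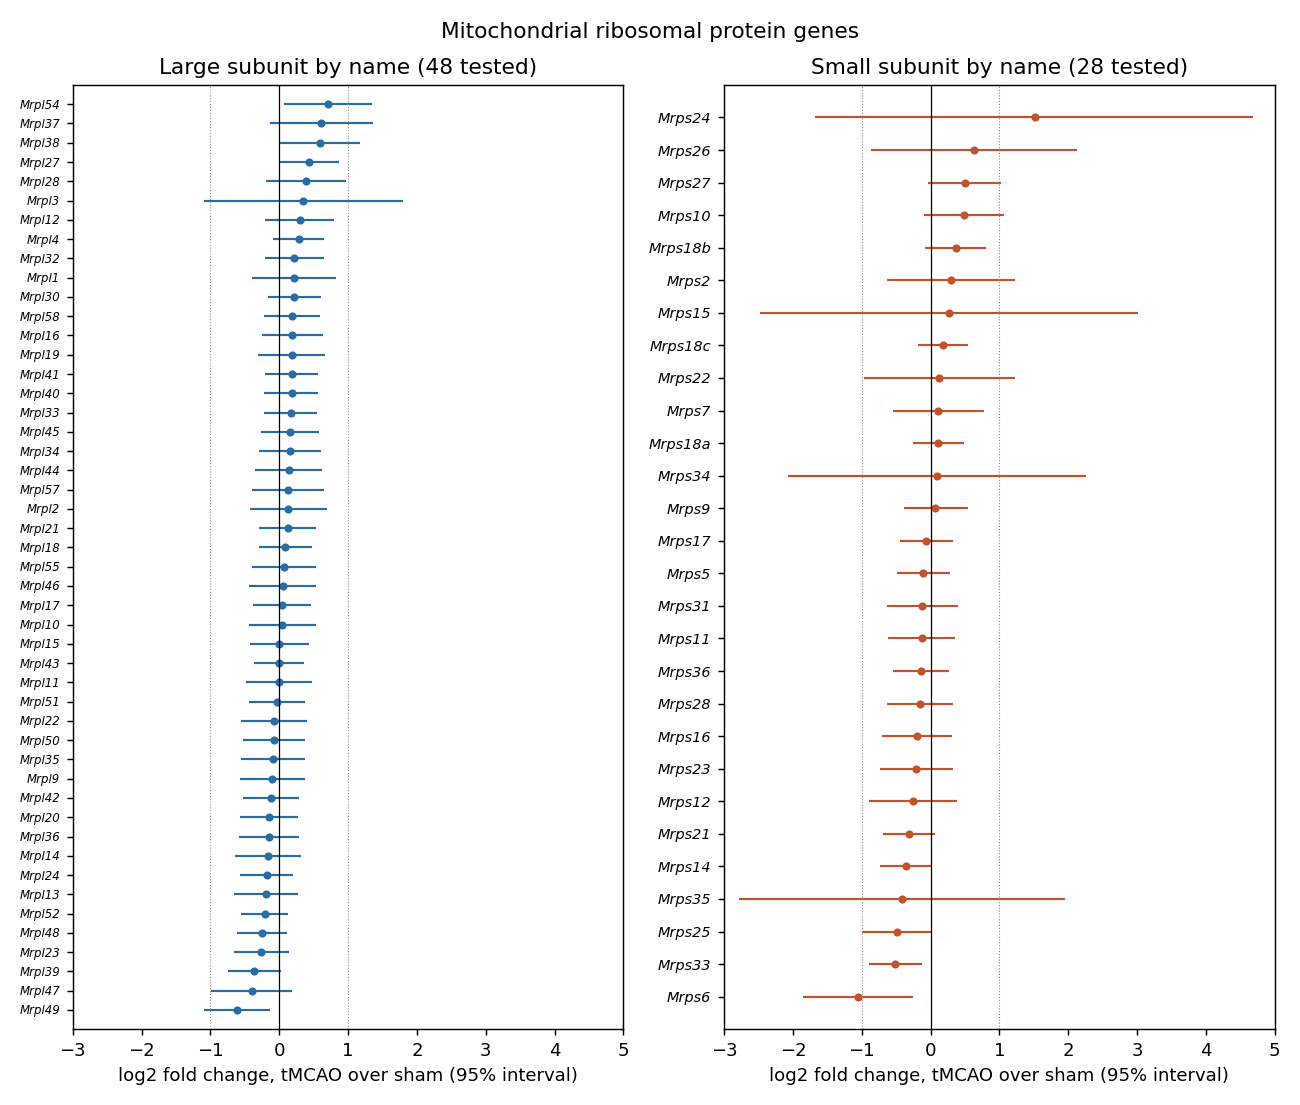
Log2 fold change of each of the 76 tested members, tMCAO over sham, with its 95% interval, for the 48 genes named for the large and the 28 named for the small subunit. Dotted lines mark a 2-fold change. Most intervals span 0, 4 exclude it (Mrpl54, Mrpl49, Mrps33 and Mrps6), and the widest belong to Mrps15, Mrps24, Mrps34 and Mrps35.

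The separation of the groups gave the same picture. The tMCAO and sham libraries did not overlap in CPM in 17 members (22.4%), against 37.8% of all genes tested. In 13 members (17.1%, against 23.3% of all genes) the 3 tMCAO values lay above the 3 sham values. These were Mrpl4, Mrpl27, Mrpl32, Mrpl37, Mrpl38, Mrpl40, Mrpl41, Mrpl54, Mrps10, Mrps18a, Mrps18b, Mrps18c and Mrps27. In 4 members (5.26%, against 14.6%) they lay below, namely Mrpl39, Mrpl49, Mrps6 and Mrps33. Over the known genes tested, the tMCAO values lay above in 28.8% and below in 10.6%. CPM does not carry the TMM scaling of the fold changes (trimmed mean of M values, edgeR's correction for library makeup), and scaling by totals alone moved the median of all genes by 0.11 on the log2 scale.

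Promoter sequence was compared because nuclear genes of mitochondrial proteins are known in mammals as targets of nuclear respiratory factor NRF1, the ETS-family factor GABP and YY1. RefSeq (GRCm38.p6) held windows for 69 members, 75 windows in all, each from 250 bases before to 50 after a start site. Both strands were searched for exact letters. The ETS core CCGGAAG stood in 26 windows (34.7%) and in 11.6% of the 21263 windows of protein-coding genes. The YY1 motif AAGATGGC stood in 12 (16%, against 3.05%), and the NRF1 palindrome, capitalised below in Mrpl39, in 3 (4%, against 1.33%). The E-box CACGTG, which MYC can bind, stood in 7 windows (9.33%, against 7.84%), and these 7 belonged to only 5 members. A TATA box, TATAAA, stood in 5 (6.67%, against 12.6%). No window held overlapping matches of different motifs, and a match of letters does not show that a factor bound.

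Shown here are the 150 bases before the start of 4 members, chosen after their values were seen to show both motifs and folds in either direction, namely Mrpl27 (groups apart, tMCAO above), Mrpl39 (groups apart, tMCAO below), Mrpl43 (fold nearest to none) and Mrps18a (tMCAO libraries almost identical). Each runs 5′ to 3′ along the gene's strand, and capitals mark the motif. They are Mrpl27 at chr11:94653641-94653790 on the plus strand, Mrpl39 at chr16:84735245-84735394 on the minus strand, Mrpl43 at chr19:45006443-45006592 on the minus strand and Mrps18a at chr17:46110854-46111003 on the plus strand.
Mrpl27: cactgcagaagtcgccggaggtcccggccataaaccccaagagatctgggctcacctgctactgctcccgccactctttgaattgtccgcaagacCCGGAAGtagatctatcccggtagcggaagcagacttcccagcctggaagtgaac
Mrpl39: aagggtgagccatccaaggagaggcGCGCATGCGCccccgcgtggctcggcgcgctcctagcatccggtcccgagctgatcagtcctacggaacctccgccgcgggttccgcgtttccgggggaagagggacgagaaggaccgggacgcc
Mrpl43: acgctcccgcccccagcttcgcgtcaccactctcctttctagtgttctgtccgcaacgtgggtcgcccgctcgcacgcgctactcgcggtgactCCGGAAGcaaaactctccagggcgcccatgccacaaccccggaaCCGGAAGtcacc
Mrps18a: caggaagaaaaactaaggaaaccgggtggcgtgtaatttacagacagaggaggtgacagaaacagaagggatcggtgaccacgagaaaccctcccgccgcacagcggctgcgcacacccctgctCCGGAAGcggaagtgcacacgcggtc
The capitals are the ETS core in Mrpl27, Mrpl43 and Mrps18a and the NRF1 palindrome in Mrpl39. The match began 55 bases before the start of Mrpl27, 125 before that of Mrpl39, 56 and 12 before that of Mrpl43 and 26 before that of Mrps18a.

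Mrpl27, a homologue of a bacterial protein at the peptidyl transferase centre, stood at 37.1, 30.9 and 38.2 CPM in sham 1 to 3 and at 50.2, 44.2 and 60.2 in tMCAO 1 to 3. Each tMCAO value was above each sham value, yet the log2 fold change of 0.43 ± 0.20 (SE) had an adjusted p of 0.161 (edgeR). A processed pseudogene nearly identical to its transcript lies elsewhere in the genome, so reads could be split. Mrpl39, a mitochondrion-specific protein, had 45.5, 46 and 43.6 CPM in sham against 39.9, 38.8 and 35.7 in tMCAO libraries. Here each tMCAO value was the lower one, with a log2 fold change of -0.36 ± 0.18 (SE) and an adjusted p of 0.187 (edgeR).

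Mrpl43 lay at 74.6, 84.8 and 79.6 CPM in sham and 85.2, 83.5 and 90.5 in tMCAO libraries. The groups overlapped, and after TMM scaling the log2 fold change was 0.00 ± 0.17 (SE; 95% interval -0.36 to 0.36). Its transcript overlaps Twnk, the mitochondrial DNA helicase gene, on the opposite strand. Mrps18a, a small-subunit name for a protein of the large subunit, had 56.9, 46.8 and 52 CPM in sham and 61.1, 60.9 and 60.7 in tMCAO libraries. The tMCAO values were all higher, by a log2 fold change of 0.11 ± 0.17 (SE), adjusted p 0.687 (edgeR).

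The 4 members with the most reads were Mrpl52, Mrps33, Mrps21 and Mrps14. The members are short genes, with a median coding length of 582 bases against 1296 over 8512 tested genes, and levels are not ranked between members here.

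Mrps33, a mitochondrion-specific protein of the small subunit, had the smallest p of all members. Its CPM was 233, 233 and 191 in sham 1 to 3 and 170, 144 and 186 in tMCAO 1 to 3. The groups did not overlap, though sham 3 and tMCAO 3 lay close to each other. The mean went from 219 ± 24.1 to 167 ± 21.2 (SD, n = 3 each), a log2 fold change of -0.51 ± 0.18 (SE; 95% interval -0.89 to -0.13) with an adjusted p of 0.0601 (edgeR). It was called lower without tMCAO 3, at an adjusted p of 0.023 (edgeR), and at 0.0297 among known genes alone. Upper-quartile scaling and a minimum count of 30 also called it lower. Over all alternatives its adjusted p ran from 0.023 to 0.206.

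Mrps14 and Mrps21, both homologues of bacterial small-subunit proteins, had lower mean CPM after tMCAO without passing. Mrps14 had 159, 155 and 141 CPM in sham and 128, 111 and 146 in tMCAO libraries, a log2 fold change of -0.36 ± 0.17 (SE), adjusted p 0.173 (edgeR). Mrps21 had 192, 203 and 188 CPM in sham and 158, 150 and 199 in tMCAO libraries, a log2 fold change of -0.32 ± 0.17 (SE), adjusted p 0.233. For both genes tMCAO 3 lay within the sham range and the other tMCAO libraries below it. Without tMCAO 3, Mrps21 was called lower at an adjusted p of 0.045 (edgeR). Mrps21 has a processed pseudogene copy. Mrpl52, a mitochondrion-specific protein of the large subunit with the most reads of all members, had 250, 277 and 255 CPM in sham and 281, 226 and 227 in tMCAO libraries, which overlap.

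**Figure D2:**
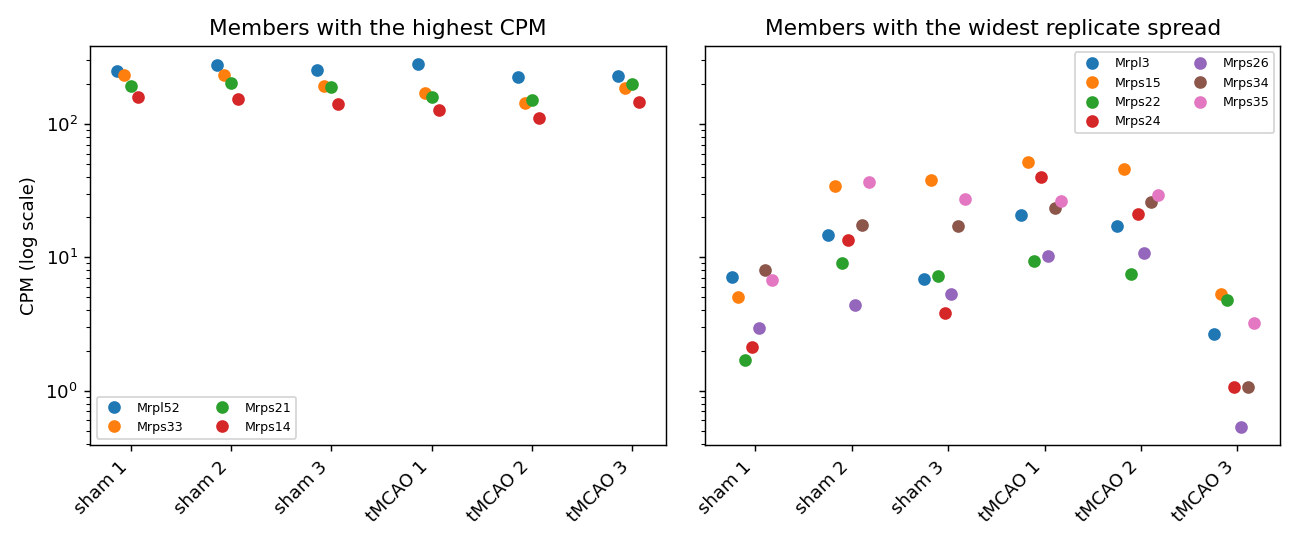
CPM on a log scale in each of the 6 libraries, on the left for the 4 members with the highest CPM and on the right for the 7 with the widest spread between replicates. The 4 high members stay within a narrow band, while sham 1 and tMCAO 3 hold the lowest values of Mrps15, Mrps22, Mrps24, Mrps34 and Mrps35.

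The balance of the subunits differed between the libraries of the groups. Summed counts of large over small members came to 1.72, 1.62 and 1.75 in sham 1 to 3 and 1.89, 1.89 and 2.05 in tMCAO 1 to 3. The ratio does not depend on how libraries are scaled, and every tMCAO value lay above every sham value, with means of 1.7 ± 0.0685 and 1.94 ± 0.0928 (SD, n = 3 each). The ranges stayed apart with members placed by structure in place of name (1.79 to 1.97 against 2.12 to 2.35), without Mrps6 (1.77 to 1.83 against 1.95 to 2.11) and without the 7 members of widest spread (1.74 to 1.89 against 2.07 to 2.12). They overlapped once Mrps14, Mrps21 and Mrps33, chosen for their reads, were left out, at 2.6 to 2.95 in sham and 2.77 to 3.31 in tMCAO libraries. The ratio of the group means was 1.14 with these genes and 1.05 without them.

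Those 3 genes summed to 584, 591 and 521 CPM in sham and 456, 405 and 530 in tMCAO libraries. The other 26 small-subunit members summed to 820, 980 and 824 CPM in sham and 984, 862 and 861 in tMCAO libraries, which overlap. Large-subunit members took 0.235% to 0.255% of counts in sham and 0.239% to 0.285% in tMCAO libraries. Small-subunit members took 0.134% to 0.157% in sham and 0.127% to 0.144% in tMCAO libraries. The mean share in tMCAO was 1.09 times that in sham for the large and 0.949 times for the small subunit. Neither share separated the groups, whereas the ratio did, and no test was run on it.

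**Figure D3:**
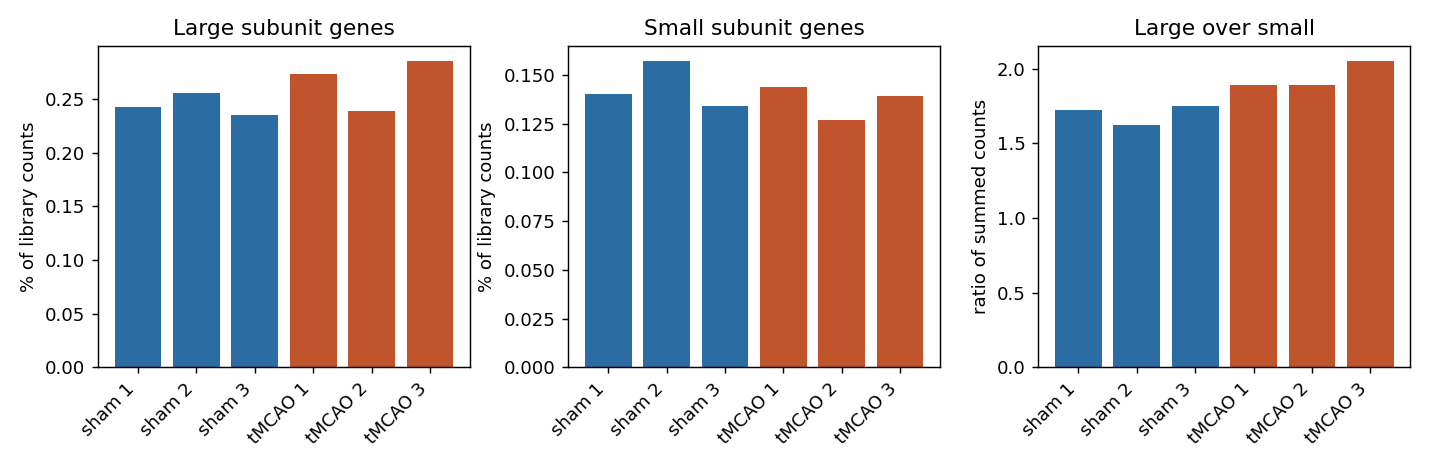
Summed counts of the 49 large-subunit and 29 small-subunit genes as a percentage of each library's counts, and the ratio of the summed counts, one bar per library, sham in blue and tMCAO in orange. Both shares overlap between the groups, while the ratio is 1.62 to 1.75 in sham and 1.89 to 2.05 in tMCAO libraries.

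Mrps6, a homologue of a bacterial small-subunit protein, had the largest negative fold of all members. Its CPM was 64.5, 130 and 54.3 in sham 1 to 3 and 50.2, 39.3 and 41.5 in tMCAO 1 to 3. The groups were separated narrowly, with sham 2 far above the other libraries. Means were 82.9 ± 41.1 and 43.7 ± 5.76 (SD, n = 3 each), and the log2 fold change was -1.06 ± 0.35 (SE; 95% interval -1.86 to -0.26), adjusted p 0.0718 (edgeR; 4.12e-05 to 0.23 over the alternatives). Without sham 2 it was -0.53.

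The 10 choroid plexus markers, all of them found in both groups, were also highest in sham 2. They summed to 14000, 44800 and 8650 CPM in sham and 2280, 4050 and 9990 in tMCAO libraries, with transthyretin (Ttr) making up most of each sum and no marker at 0 in any library. Sham 2 was also the highest sham library in the summed markers of erythroid cells (2860, 6040 and 955 CPM in sham 1 to 3), oligodendrocytes (425, 1060 and 193), astrocytes (292, 432 and 146) and endothelium (263, 545 and 356). Their part in the values of Mrps6 was not tested. The gene also overlaps Slc5a3, an inositol transporter gene, and the model Gm49711 on the same strand. Slc5a3 was counted at 32.9, 34.5 and 35.2 CPM in sham and 33, 28 and 19.7 in tMCAO libraries, so sham 2 did not stand out there.

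Mrpl49, a mitochondrion-specific protein of the large subunit, had 25.7, 27.7 and 30.2 CPM in sham and 20.7, 17.2 and 21.3 in tMCAO libraries. Each tMCAO value was below each sham value, the means being 27.9 ± 2.25 and 19.7 ± 2.19 (SD, n = 3 each). The log2 fold change was -0.61 ± 0.22 (SE; 95% interval -1.10 to -0.13), adjusted p 0.074 (edgeR; 0.0417 to 0.229 over the alternatives). Syvn1, a ubiquitin ligase gene, overlaps it on the opposite strand. Mrps25, mitochondrion-specific and of the small subunit, had 50.6, 58.7 and 40.5 CPM in sham and 45.3, 28 and 42.6 in tMCAO libraries, which overlap, with a log2 fold change of -0.49 ± 0.24 (SE). Mrpl47, a bacterial homologue of the large subunit near the exit of the peptide tunnel, had a log2 fold change of -0.40 ± 0.27 (SE), adjusted p 0.329 (edgeR), with 14.7 to 18.6 CPM in sham and 11.3 to 15.4 in tMCAO libraries.

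On the higher side, Mrpl54, a mitochondrion-specific large-subunit protein, had 8.43, 14.3 and 18.7 CPM in sham 1 to 3 and 29.5, 23.7 and 20.8 in tMCAO 1 to 3. The groups did not overlap, but sham 3 and tMCAO 3 were close. The log2 fold change was 0.71 ± 0.29 (SE; 95% interval 0.07 to 1.34), adjusted p 0.113 (edgeR; 0.0469 to 0.372 over the alternatives). These values rest on 20 to 60 counts a library.

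Mrpl38 had 8.43, 9.91 and 11.9 CPM in sham and 16.7, 16.7 and 16 in tMCAO libraries, a log2 fold change of 0.59 ± 0.27 (SE), adjusted p 0.155 (edgeR). Mrpl37 had 4.64, 7.93 and 7.65 CPM in sham and 9.85, 14.6 and 9.59 in tMCAO libraries, a log2 fold change of 0.61 ± 0.35 (SE), adjusted p 0.242. Mrps27, an RNA-binding protein with pentatricopeptide repeats, had 14.3, 15.1 and 13.4 CPM in sham and 21.7, 19.9 and 24 in tMCAO libraries, a log2 fold change of 0.50 ± 0.24 (SE), adjusted p 0.178. In each of these the tMCAO libraries lay above the sham libraries. All 3 encode mitochondrion-specific proteins. Of the large-subunit members whose groups did not overlap, placed by structure, 8 were classed as mitochondrion-specific (42.1% of the 19 tested), Mrps18a among them. A further 3 were classed as bacterial homologues (10% of the 30 tested). The share over all genes tested was 37.8%, and the difference between these groups of members was not tested.

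Members known for a function of their own had intervals that included no change. Mrpl12, the homologue of the bacterial stalk protein, which in human cells also binds mitochondrial RNA polymerase, had 26.3 ± 5.8 CPM in sham and 35.4 ± 5.39 in tMCAO (SD, n = 3 each), a log2 fold change of 0.30 ± 0.23 (SE). Mrpl11, at the base of the stalk, had a log2 fold change of -0.01 ± 0.22 (SE). Mrpl45, which holds the human ribosome to the inner membrane, had 43.9 ± 3.83 and 53.5 ± 6.29 CPM (SD, n = 3 each), a log2 fold change of 0.16 ± 0.19 (SE). The groups overlapped in all 3 genes, and the intervals ran from -0.20 to 0.80, -0.48 to 0.47 and -0.26 to 0.58.

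Mrpl58, a former release factor that frees stalled peptides and was built into the large subunit, had 51.9, 61.8 and 54.3 CPM in sham and 70.9, 59.8 and 76.7 in tMCAO libraries. Its log2 fold change was 0.19 ± 0.19 (SE), and tMCAO 2 lay inside the sham range. Mrpl44, which carries a ribonuclease fold and is mutated in human cardiomyopathy, had a log2 fold change of 0.14 ± 0.23 (SE). Mrpl16, homologous to a bacterial protein near the tRNA sites, had one of 0.19 ± 0.20 (SE), and Mrpl41, mitochondrion-specific, one of 0.18 ± 0.18 (SE).

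Mrpl4, a homologue that lines the peptide tunnel, had 60.7, 58.3 and 59.7 CPM in sham and 81.3, 69 and 84.7 in tMCAO libraries. The sham libraries were nearly equal and the groups were apart, with a log2 fold change of 0.28 ± 0.17 (SE) and an adjusted p of 0.289 (edgeR). Mrps12, of the decoding centre, had 17.7, 36.1 and 28.3 CPM in sham and 33, 19.4 and 22.4 in tMCAO libraries, which overlap. Mrps36 is now known as a subunit of the oxoglutarate dehydrogenase complex and not of the ribosome. It had 76.8, 75.3 and 70.8 CPM in sham and 66, 66.3 and 86.8 in tMCAO libraries, a log2 fold change of -0.14 ± 0.19 (SE).

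A handful of small-subunit members varied far more between replicates than the rest. The median SD of log2 CPM within groups (pseudocount 0.5) was 0.20 in members and 0.34 over all genes tested, but it passed 1 in 6 members (7.89%), Mrpl3, Mrps15, Mrps24, Mrps26, Mrps34 and Mrps35, against 3.58% of all genes. Mrps15, a bacterial homologue, had 5.06, 34.1 and 38.2 CPM in sham 1 to 3 and 52.2, 46.3 and 5.33 in tMCAO 1 to 3. Sham 1 and tMCAO 3 were thus far below the other 4 libraries, whatever the group. Across 3762 genes, the deviations of these libraries from their group means had a Pearson correlation of 0.53, the highest of any sham and tMCAO pair. Sham 1 correlated at -0.43 with tMCAO 1 and at -0.36 with tMCAO 2. Deviations cancel out within a group, so these values constrain each other.

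Mrps35 repeated that pattern, at 6.75, 36.5 and 27.2 CPM in sham and 26.6, 29.1 and 3.2 in tMCAO libraries. Mrps34, mutated in a human form of Leigh syndrome, did so at 8.01, 17.4 and 17.2 CPM in sham and 23.6, 25.9 and 1.07 in tMCAO libraries. In these 3 members (3.95%) both libraries lay under 0.5 times the lowest of the other 4. The same held for 1.14% of all genes tested and for 1.69% of the known genes among them. Mrps24, the homologue of a protein at the messenger RNA entry, had 2.11, 13.5 and 3.82 CPM in sham and 39.9, 21 and 1.07 in tMCAO libraries. Its log2 fold change, the highest of all members at 1.51 ± 1.21 (SE), had an interval from -1.68 to 4.69, so its direction was not determined.

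Mrps26, at 2.95, 4.36 and 5.35 CPM in sham and 10.3, 10.8 and 0.533 in tMCAO libraries, had its lowest values in the same libraries. So did Mrps22, mutated in human mitochondrial disease, at 1.69, 9.12 and 7.27 CPM in sham and 9.36, 7.55 and 4.79 in tMCAO libraries. Mrpl3, mutated in human cardiomyopathy, was lowest in tMCAO 3 and sham 3, at 7.17, 14.7 and 6.88 CPM in sham and 20.7, 17.2 and 2.66 in tMCAO libraries. With sham 1 and tMCAO 3 both left out, the log2 fold changes of these genes were 0.27 (Mrps15), -0.38 (Mrps35), 0.33 (Mrps34), 1.62 (Mrps24), 0.93 (Mrps26), -0.14 (Mrps22) and 0.63 (Mrpl3), and none was called. In GENCODE M21, Mrps24 overlaps Urgcp on the same strand and Mrps34 overlaps Nme3, while Mrps15 and Mrps35 overlap no other gene.

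Proteins of the same ribosome that carry other names gave similar values. Of Dap3, Ptcd3, Chchd1, Aurkaip1 and Gadd45gip1, 0 of 5 were called, with 0 at an unadjusted p under 0.05 (edgeR; 0.491 to 0.771), and their median log2 fold change was 0.10. Over all alternatives, DESeq2 and limma voom included, the lowest adjusted p of any of them was 0.224. Gadd45gip1 had 6.75, 21 and 18 CPM in sham and 32, 25.9 and 3.73 in tMCAO libraries, again lowest in sham 1 and tMCAO 3.

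The enzymes and factors that work with the ribosome held a few called genes, a smaller share than the 18.1% of all genes tested. Tsfm, the elongation factor that recharges mitochondrial EF-Tu, rose from 4.64, 5.15 and 5.35 CPM in sham to 14.3, 14.6 and 12.8 in tMCAO libraries, a log2 fold change of 1.33 ± 0.31 (SE), adjusted p 0.0103 (edgeR). Without sham 1 its adjusted p was 0.0538. It was 1 of 15 translation factors tested (6.67%), and the group's median log2 fold change was 0.07. Gfm1, the elongation factor that moves the ribosome along, had a log2 fold change of 0.90 ± 0.32 (SE) and an adjusted p of 0.0665, and is named here after its values were seen.

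Dhx30, a helicase needed for assembly of the mitochondrial ribosome, rose from 26.6, 24.2 and 21 CPM in sham to 41.4, 49 and 42.1 in tMCAO libraries. Its log2 fold change was 0.76 ± 0.20 (SE), adjusted p 0.0206 (edgeR), and the call was lost without sham 1 (0.0592), without sham 3 (0.0944) or without tMCAO 2 (0.0661), as well as with DESeq2's test (0.0559), with the replicate block (0.0568) and without sham 1 and tMCAO 3 together (0.0553). It was 1 of 16 assembly factors tested (6.25%). Ears2, which charges mitochondrial tRNA with glutamate, fell from 17.3, 16.6 and 14.5 CPM to 7.88, 7.55 and 2.66, a log2 fold change of -1.54 ± 0.35 (SE), adjusted p 0.00985. Of the 7 tRNA synthetases tested it was the only one called (14.3%), and 10 of the 17 in the list were too low to test. With sham 1 and tMCAO 3 both left out its adjusted p was 0.055.

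A last list joined genes of mitochondrial transcription, genes of mitochondrial DNA upkeep and transcription factors of the nucleus. Among its 12 tested genes Myc, a nuclear factor, alone was called (8.33%). It rose from 37.5, 26.2 and 43.2 CPM in sham to 47.8, 87.8 and 104 in tMCAO libraries, a log2 fold change of 1.06 ± 0.30 (SE), adjusted p 0.0368 (edgeR). That call was lost whichever library was left out other than tMCAO 1, with adjusted p values of 0.0652 to 0.111. It was also lost with limma voom (0.0701), upper-quartile scaling (0.0514), known genes only (0.0816) and without sham 1 and tMCAO 3 together (0.136). These lists thus gave 3 genes higher and 1 lower.

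The messages that this ribosome translates gave larger folds than its own proteins. All 13 protein-coding genes of the mitochondrial genome lay lower in every tMCAO than in every sham library, and 12 passed the test as lower, the exception being mt-Co1 (-1.34 ± 0.37 SE, adjusted p 0.0624, edgeR). The 4 with the smallest p were subunits of complex I, with log2 fold changes of -1.70 ± 0.21 (mt-Nd2), -1.89 ± 0.24 (mt-Nd3), -2.15 ± 0.24 (mt-Nd4) and -1.77 ± 0.24 (mt-Nd5; SE). Over the alternatives 10 to 13 of them were called lower, 11 of them without sham 1 and tMCAO 3. The summed counts of all 13 came to 6.09, 8.13 and 4.84 times those of the 78 members in sham 1 to 3 and to 2.14, 2.27 and 2.44 times in tMCAO 1 to 3. The ratio was thus lower in each tMCAO library, while the members' own share overlapped between the groups. The mitochondrial ribosomal RNAs were not analysed here.

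Markers of some other cell types had the same order of the sham libraries as these messages, while others did not. The 13 genes took 2.33%, 3.35% and 1.79% of counts in sham 1 to 3 and 0.83% to 1.04% in tMCAO libraries, so that sham 2 was highest and sham 3 lowest of the sham libraries. The 7 erythroid markers had the same order, at 2860, 6040 and 955 CPM in sham and 215 to 380 in tMCAO libraries. The 10 astrocyte markers did too, at 292, 432 and 146 CPM in sham and 70.4 to 95.9 in tMCAO libraries, and Slc1a2, Aldoc and S100b of the 5 tested passed as lower. Choroid plexus markers, given beside Mrps6, and oligodendrocyte markers (425, 1060 and 193 CPM) shared that order of the sham libraries, but both overlapped between the groups. For choroid plexus, tMCAO 3 (9990 CPM) lay above sham 3 (8650 CPM). Another order of sham 1 to 3 was seen in endothelial (263, 545 and 356 CPM), neutrophil (1740, 1750 and 2230) and neuronal markers (16, 11.5 and 13), among others. Of these, neutrophil markers (393 to 1720 CPM in tMCAO libraries) and neuronal markers (5.33 to 8.86) still lay lower in every tMCAO than in every sham library. Endothelial markers (343 to 578 CPM in tMCAO libraries) overlapped between the groups. The part of any of these cell types in the lower mitochondrial messages was not tested.

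Nuclear genes of the respiratory chain stood between these. Their median log2 fold change was -0.22 over 74 tested, with 64 negative values. Of the 74, 3 (4.05%) passed as lower, a smaller share than the 8.96% of all genes tested. These were the complex I subunits Ndufa8 (-0.71 ± 0.16 SE, adjusted p 0.00964, edgeR) and Ndufa10 (-0.77 ± 0.21 SE, adjusted p 0.0211) and the complex III subunit Uqcrh (-0.50 ± 0.16 SE, adjusted p 0.0409). Other settings ended each call: Ndufa8 without sham 1 (0.0536), Ndufa10 without sham 2 (0.0583), sham 3 (0.071) or tMCAO 2 (0.0851) and with library totals (0.0642), and Uqcrh without any library other than tMCAO 3 (0.0712 to 0.145). Uqcrh was also lost with DESeq2's test (0.0774), the replicate block (0.0983), library totals (0.0653) and no low-count filter (0.0513). Without tMCAO 3 the number called lower was 12, and without sham 1, sham 2, sham 3 or tMCAO 2 it was 1.

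Proteins of the cytosolic ribosome, which works outside mitochondria, gave many more calls. Of 79 tested, 45 passed as lower and 2 as higher (Rpl24 and Rps29), with a median log2 fold change of -0.43, against 0 of 76 members and a median of 0.06. The number called lower was 25 without sham 1, 27 without sham 3 and 29 without tMCAO 2. The 4 with the smallest p were Rps21 (-1.41 ± 0.15 SE), Rplp1 (-1.15 ± 0.13), Rpl30 (-1.04 ± 0.14) and Rps15 (-0.90 ± 0.12). Their median SE was 0.13 against 0.22 for the members, whose counts are lower. Summed counts of cytosolic over mitochondrial ribosomal proteins came to 39.1, 32.8 and 42.2 in sham and 29, 32.7 and 27.1 in tMCAO libraries, the groups being separated by the small gap between sham 2 and tMCAO 2. Near-identical pseudogene copies are common among cytosolic ribosomal protein genes, and reads may have been split there.

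**Figure D4:**
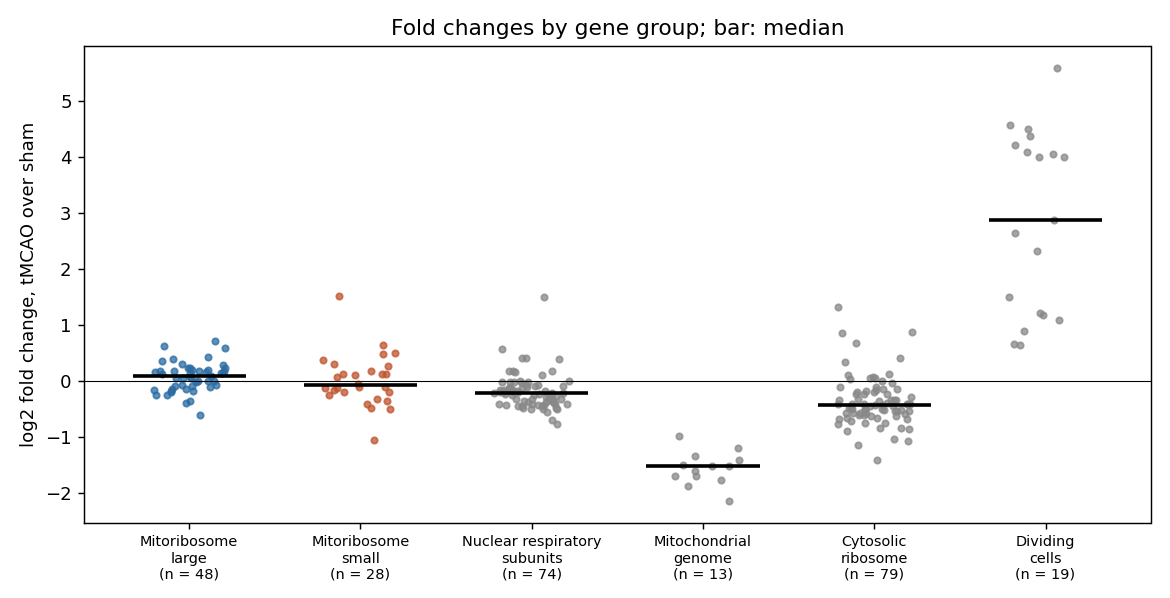
Log2 fold change, tMCAO over sham, of each tested gene in 6 groups, with the group median as a bar. The mitoribosomal medians are 0.08 (large) and -0.08 (small), beside -0.22 for nuclear respiratory subunits, -1.53 for the mitochondrial genome, -0.43 for the cytosolic ribosome and 2.86 for markers of dividing cells.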

How the data were processed

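RNA of 6 pools of microglia, 3 sham and 3 tMCAO, was sequenced as nanopore cDNA made with a PCR-based kit, per the labels' protocols. The aligner minimap2 is named, without a version or its settings, per the submitters' processing notes. Not given in the sources used here are the genome build, annotation, counting rule and strand setting. The authors deposited a table of raw counts per gene, with CPM columns beside them, per the file headers. CPM recomputed from the counts and library totals matched the deposited values to within 4.87e-06. Of 38219 lines, 12 held no gene and were left out.

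The members and gene lists were chosen with earlier results of these data known. Counts of all genes were fitted with edgeR 4.0.16 (R 4.3.3; filterByExpr with minimum count 10 and minimum total 15, TMM, glmQLFit with robust dispersions, glmQLFTest, group as the only term), and p-values were adjusted by Benjamini-Hochberg over the 13127 tested. A gene was called at an adjusted p under 0.05. SE is the absolute log2 fold change over the square root of F, and 95% intervals use the fit's degrees of freedom. The biological coefficient of variation was 22.6%. The labels do not say how the pools were prepared, so a p-value here reflects how much these pools vary, which may be technical. At these depths 1 count was 0.382 to 0.539 CPM. The median count of a member in a library was 11 to 582, and PCR reads carry no molecular identifiers.

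Members named are the 6 with the largest rise, the 6 with the largest fall, the 4 with the highest CPM and 16 picked for their known role. Those named for groups that do not overlap, for a promoter or for an alternative's call were added after their values were seen. Of the other lists, every called gene was named where there were at most 4, otherwise the 4 with the smallest p. Genes of the cell type lists other than microglia were left unnamed or named for a single result.

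Alternatives were DESeq2 1.42.0 (size factors or its own test), limma voom 3.58.1, library totals or upper-quartile scaling, no low-count filter, a minimum count of 30, known genes only, the replicate number as a block, and leaving out libraries. The code was tested on simulated data. Lengths, overlaps and copies (blastn 2.17.0, identity of at least 95% over at least 50% of the transcript) come from GENCODE M21, joined by Ensembl ID. Of the members, 8 overlap a gene on the same strand, 25 one on the opposite strand, and 6 have a processed pseudogene copy (Mrpl22, Mrpl23, Mrpl27, Mrpl42, Mrps10 and Mrps21). Protein sequences were not used here.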

Additional observations from a re-analysis of the deposited data

How the results depend on the processing

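Members called numbered 0 in either direction in the reported fit. Upper-quartile scaling called 3 lower (Mrps33, Mrps6 and Mrpl49), known genes only called 2 lower (Mrps33 and Mrpl49), and a minimum count of 30 called 1 lower (Mrps33). DESeq2's test called 1 lower (Mrps6), and no low-count filter 1 lower (Mrps6) and 1 higher (Mrpl54). Leaving out single libraries gave 0 to 2 lower, namely Mrps6 without sham 3 and Mrps33 and Mrps21 without tMCAO 3. The members' median was 0.17 with library totals, where that of all genes was 0.11, and -0.09 without sham 1 and tMCAO 3 together. The cause was not tested for any change given here.

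The other lists of mitochondrial translation, assembly and transcription, nuclear factors included, were counted together. Their genes called higher (3 reported) numbered 5 with no low-count filter, 0 to 4 over single libraries left out and 1 without sham 1 and tMCAO 3. That last setting left 0 of the 1 called lower. Cytosolic ribosomal proteins called higher (2) numbered 1 with upper-quartile scaling or known genes only, 5 with no filter and 1 to 3 over single libraries, and those called lower (45) 25 to 49 over single libraries. Nuclear respiratory subunits called lower (3) numbered 1 with library totals, 5 with upper-quartile scaling, 6 with known genes only, 1 to 12 over single libraries and 8 without sham 1 and tMCAO 3.

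A log2 fold change took the other sign under at least 1 alternative in 36 of the 76 members, none of them called there. Among the 30 tested members that the naming rule chose these were Mrps35 (-0.87 to 0.09 over single libraries left out, positive without sham 2 or tMCAO 3), Mrpl3 (-0.06 without tMCAO 1, to 0.84), Mrpl11 (0.10 with library totals, 0.06 with no filter, -0.17 to 0.12 over single libraries), Mrpl44 (0.00 without tMCAO 3, to 0.30, -0.11 without both libraries), Mrpl45 (0.00) and Mrpl58 (-0.01, both without both libraries), Mrps12 (-0.52 to 0.02, without sham 2), Mrps15 (-0.23 without sham 1, to 0.78), Mrps22 (-0.33 without sham 1, to 0.57, -0.14 without both libraries) and Mrps34 (-0.58 with limma voom, -0.12 with the replicate block, -0.31 without tMCAO 2, to 0.65). The other 26 had reported log2 fold changes of -0.21 to 0.39.

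Whether replicate numbers pair the samples was not settled here. Deviations of same-numbered libraries from their group means correlated at -0.43, 0.14 and -0.31 across 3762 genes, which are not independent. Such deviations cancel out within a group, so the correlations constrain each other and cannot show pairing or its absence. Sham 1 with tMCAO 3 correlated highest, at 0.53. With the replicate block, 1662 of all genes were called in place of 2380, 0 members were called and their median was 0.04.

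Depth limits the members more than the cytosolic ribosomal proteins, and 0 calls do not exclude changes, including some above the intervals' median half-width of 0.47.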
